A study of Mus musculus with 42 samples.

Results

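Liver gene expression after 21 days of a high-fat diet (HFD) was compared with expression after 7 days. The comparison took the 8 arrays whose titles name 21 days of HFD and the 8 whose titles name 7 days, 16 of the 42 arrays in the series, and it ran over all 17989 genes with a probe set of 1 gene symbol. Both groups were wild-type males of the inbred strain C3HeB/FeJ, single-housed and fed at random. They were aged 17 weeks at 21 days and 15 weeks at 7 days, so age and time on the diet cannot be told apart. The remaining arrays were 8 after 14 days of HFD, at 16 weeks of age, and 18 from controls on a low-fat diet, at 15 to 17 weeks of age. The titles of the 21-day arrays, and of the controls, carry the word reanalysis, and those of the 7-day and 14-day arrays do not. Any batch marked by that word and the time on the diet cannot be told apart here. The labels number the arrays 1 to 8 in each HFD group without naming animals, so each p-value sets a difference against the spread between arrays, and that spread may be technical in part.

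A liver that takes up more fatty acid burns, stores or exports it. Fatty acids activate PPAR-alpha, a nuclear receptor that switches on genes of fatty acid oxidation in mitochondria and peroxisomes and of lipid droplet coating. Synthesis of new fatty acids is driven by insulin and carbohydrate through SREBP-1c and ChREBP, and hepatocytes also secrete acute phase proteins, plasma proteins whose synthesis rises in inflammation. The comparison asks which of the changes present after the first week were smaller, as large or larger 2 weeks later.

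Values are on the log2 scale of the deposited table, where a difference of 1 is a doubling of signal. The liver label was checked against hepatocyte markers. Albumin (Alb) read 13.17 to 13.57 on the 21-day arrays, with a median of 13.38, and 13.22 to 13.61 on the 7-day arrays, with a median of 13.37. All 7 hepatocyte markers measured had a lower mean at 21 days, by a median of -0.07, though by 0.03 with 2 of 7 lower after quantile normalization, and 0 of them passed an unadjusted p under 0.05. The scale itself differed a little between the groups. The 2765 genes with a mean level above 6 were lower at 21 days by a median of -0.11, while the 929 olfactory receptor genes, which stand in for background, were higher by a median of 0.06. The shift lay in the arrays numbered 1 to 4, where genes above 6 had a median difference of -0.23, against 0.02 in those numbered 5 to 8. The 21-day array numbered 3 stood apart, with those genes at -0.33 from their mean over all arrays, against -0.16 to 0.16 on the other 21-day arrays. Quantile normalization, which gives every array the same distribution, took the median over genes above 6 to -0.01. Medians of gene lists are therefore given on both scales.

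**Figure D1:**
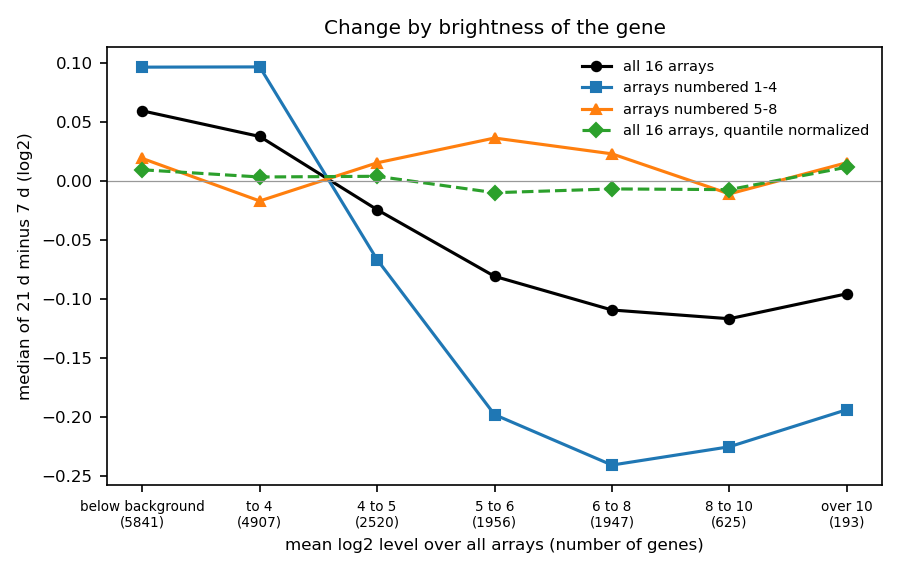
Median difference 21 d minus 7 d of HFD (log2, vertical axis) for genes grouped by their mean log2 level over all arrays (horizontal axis, with the number of genes), where below background means under the 95th percentile of olfactory receptor genes. Black circles use all 16 arrays, blue squares and orange triangles the arrays numbered 1 to 4 and 5 to 8, and green diamonds all 16 arrays after quantile normalization; genes of level 6 to 8 lie at -0.24 in the arrays numbered 1 to 4 and at 0.02 in those numbered 5 to 8.

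RNA of exocrine pancreas was also present in uneven amounts. The mean level of 13 pancreatic acinar enzymes ran from 3.40 to 6.40 on the 21-day arrays, with a median of 4.19, and from 3.54 to 9.30 on the 7-day arrays, with a median of 5.34. All 13 had a lower mean at 21 days, by a median of -1.32, or -1.25 after quantile normalization, and 0 passed an unadjusted p under 0.05. Malat1, a nuclear non-coding RNA, read 6.20 to 9.57 on the 21-day arrays and 6.60 to 9.43 on the 7-day arrays. In both groups each array numbered 5 to 8 was above each array numbered 1 to 4. In whole liver, fewer cells of a type and less RNA per cell cannot be told apart.

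Few genes separated the livers of 21 days from those of 7 days. In limma with Benjamini-Hochberg adjustment over all genes, 1 of 17989 genes changed between 7 and 21 days of HFD (adjusted p under 0.05, 0.00556% of genes). That gene was Lcn2, which fell. In the other direction 0 genes passed (0%), and the smallest adjusted p was 0.196, for the predicted gene Gm9936. At an unadjusted p under 0.05 there were 503 genes lower (2.8%) and 780 higher (4.34%) at 21 days. After quantile normalization 0 genes passed (0%), with 919 (5.11%) at an unadjusted p under 0.05. The 14-day arrays passed for 0 genes against those of 7 days (451 or 2.51% unadjusted), and the 21-day arrays for 0 against those of 14 days (715 or 3.97% unadjusted). The median SE of a difference was 0.11, and for 94.4% of genes, many of them dim, the 95% limits stayed within 1.5-fold in either direction. They did so for 129 of the 208 genes called higher than controls at 7 days, 21 of 35 PPAR-alpha targets and 7 of 19 lipogenesis genes. Every gene other than Lcn2 and Gm9936 had an adjusted p of 0.574 or above, so values for them are given with their 95% limits and no verb of change.

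Lcn2 encodes lipocalin-2, a secreted protein that binds bacterial siderophores and is a marker of hepatic inflammation. It read 4.10 to 5.08 on the 21-day arrays, with a median of 4.40, and 4.66 to 5.54 on the 7-day arrays, with a median of 5.24. On 7 of the 8 arrays at 21 days it was below every array at 7 days, and the array numbered 8 was the exception at 5.08. Lcn2 fell by 0.77 (95% limits -1.06 to -0.49, adjusted p = 0.0284), a 1.71-fold difference. Its means in time order were 4.08 in controls, 5.20 at 7 days, 4.48 at 14 days and 4.42 at 21 days, so the 14-day arrays were already low. Against controls Lcn2 was higher by 0.34 at 21 days (adjusted p = 0.341) and by 1.12 at 7 days. The difference was -0.80 in the arrays numbered 1 to 4 and -0.75 in those numbered 5 to 8, and it passed in neither set of 8 arrays alone. The adjusted p was 0.0612 without the 21-day array numbered 3, and leaving out single arrays gave 0.00165 to 0.149, with the call lost in 12 of 16 cases. After quantile normalization the difference was -0.72 with an adjusted p of 0.103. With the acinar level of each array as a covariate it was -0.79 (adjusted p = 0.0458).

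**Figure D2:**
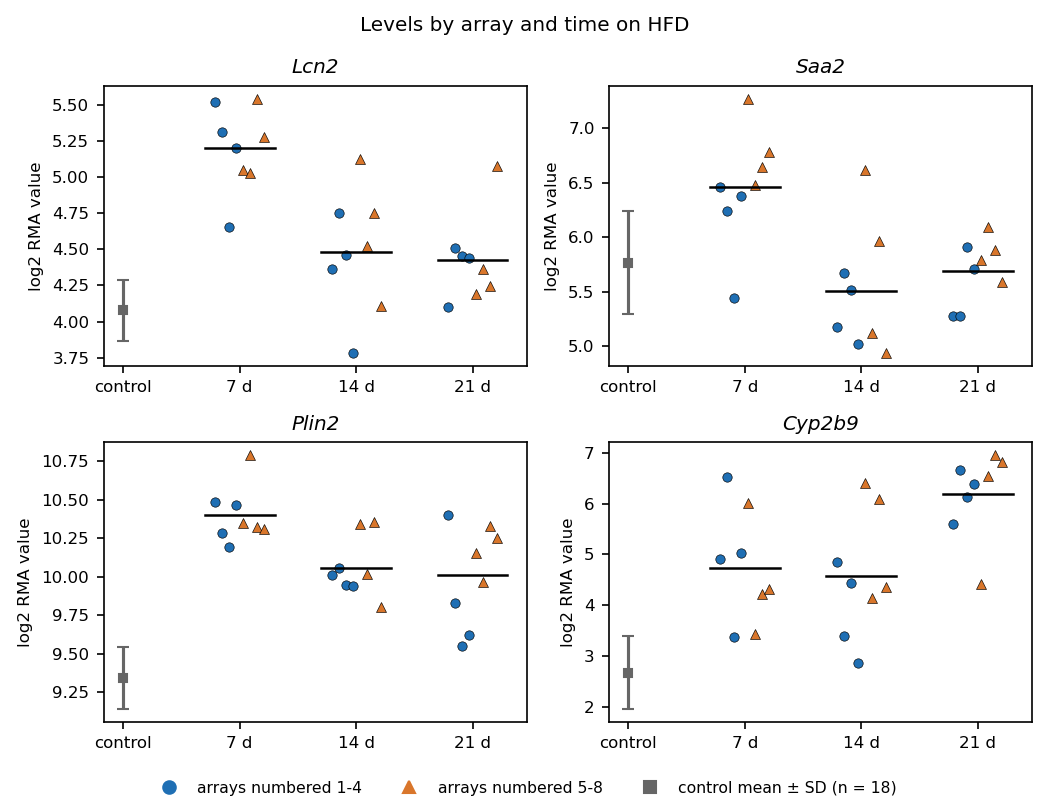
Log2 levels (vertical axes) of Lcn2, Saa2, Plin2 and Cyp2b9 on each array after 7, 14 and 21 days of HFD, with the control mean and SD (n = 18) at the left; circles are arrays numbered 1 to 4, triangles those numbered 5 to 8, and the bar is the mean of 8 arrays. For Lcn2, 7 of the 8 arrays at 21 days lie below every array at 7 days, and for Cyp2b9 the 21-day mean is 6.19 against 4.73 at 7 days.

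The acute phase genes as a list, with Lcn2 counted in, were mixed. Of 29 measured members of a list of acute phase and inflammation genes, 22 had a lower mean at 21 days, set against 45.6% of all genes, and 6 of 29 (20.7%) were lower at an unadjusted p under 0.05, set against 2.8%. After quantile normalization 20 of the 29 had a lower mean, where 48.6% of all genes did. On that scale 4 of the 29 were lower at an unadjusted p under 0.05, as were 416 of 17989 genes. Saa2, a serum amyloid A apolipoprotein, read 5.28 to 6.09 at 21 days, with a median of 5.75, and 5.45 to 7.27 at 7 days, with a median of 6.47. The 7-day array numbered 3, at 5.45, lay inside the 21-day range, and the other 7-day arrays lay above it. The difference was -0.77 (limits -1.22 to -0.32), with wider limits than for Lcn2. Hpx, which encodes the haem-binding plasma protein hemopexin, read 11.99 to 12.28 at 21 days (median 12.26) and 12.26 to 12.76 at 7 days (median 12.44), and the difference was -0.27 (limits -0.42 to -0.12). The list's median was -0.13 on the deposited scale and -0.04 after quantile normalization. On the deposited scale it was -0.24 in the arrays numbered 1 to 4 and -0.04 in those numbered 5 to 8. Of its 29 members, 1 passed (Lcn2), where 0.00556% of genes were called lower.

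The 250 bases before the start sites of these 3 genes are shown because they share a short match to the C/EBP motif, the site of a transcription factor family that drives acute phase genes in liver. The sequences are RefSeq's on build GRCm38.p6, written in the direction of transcription, with the motif match in capitals: Lcn2 at chr2:32387740-32387989 on the minus strand, Saa2 at chr7:46751583-46751832 on the plus strand and Hpx at chr7:105600117-105600366 on the minus strand.
Lcn2: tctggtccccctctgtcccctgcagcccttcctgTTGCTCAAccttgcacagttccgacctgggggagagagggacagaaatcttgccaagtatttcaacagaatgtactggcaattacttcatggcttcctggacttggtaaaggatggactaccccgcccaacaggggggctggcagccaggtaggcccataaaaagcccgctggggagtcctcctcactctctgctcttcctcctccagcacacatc
Saa2: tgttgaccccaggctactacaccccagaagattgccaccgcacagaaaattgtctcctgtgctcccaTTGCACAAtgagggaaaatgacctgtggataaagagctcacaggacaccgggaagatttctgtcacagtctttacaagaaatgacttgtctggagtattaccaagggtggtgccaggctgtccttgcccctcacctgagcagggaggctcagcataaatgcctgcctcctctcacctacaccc
Hpx: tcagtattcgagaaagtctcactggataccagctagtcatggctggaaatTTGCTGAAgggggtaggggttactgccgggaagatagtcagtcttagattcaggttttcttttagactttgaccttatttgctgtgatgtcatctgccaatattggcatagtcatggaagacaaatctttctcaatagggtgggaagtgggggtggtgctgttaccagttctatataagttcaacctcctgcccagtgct
The motif was searched as TTGCNNAA on both strands, and the search was chosen after the results were seen. It lay at -216 in Lcn2, at -183 in Saa2 and at -200 in Hpx, counted from the start site. Such a match was in 2582 of 27025 promoters (9.55%), and in 11 of the 24 acute phase genes with a RefSeq promoter (45.8%). Of 4 further genes searched, Cyp2b9 held 1 at -180 and Fabp2 1 at -61, and Plin2 and Apoa4 held none. A STAT motif (TTCNNNGAA, both strands) was in 7.18% of promoters and in 7 of these 24 acute phase genes (29.2%), but in none of the 3 shown. NF-kappaB and DR1 motifs were also searched and were in 1 and 0 of the 24. A match of letters is a description of the sequence and no evidence of binding in these livers.

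Most genes with an early rise had lower values at 21 than at 7 days and stayed above controls. The early response was taken as the 251 genes (1.4%) that passed against controls at 7 days, 208 of them higher (1.16%) and 43 lower (0.239%). Of the 208, 202 had a lower mean at 21 than at 7 days. Of them 71 (34.1%) were lower at an unadjusted p under 0.05, or 43 after quantile normalization. Over all genes 45.6% had a lower mean and 2.8% were lower unadjusted, or 416 of 17989 after quantile normalization. The 208 had a median difference from controls of 0.34 at 21 days, against 0.56 at 7 days. The median gene had 62.6% of its 7-day difference left. They remained on the same side of controls in 205 of 208 genes, and 71 still passed at 21 days. The median 21 minus 7 difference of the 208 was -0.23, and -0.16 after quantile normalization, with 188 below, where 48.6% of all genes were. It was -0.20 without the 21-day array numbered 3. Because these genes were chosen on the 7-day arrays, part of this direction is fixed by the choice.

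A list from the 14-day arrays and lists from part of the 7-day arrays gave the same sign. All shared their controls with the 7-day list, so they are not independent support. The titles of the controls and the 21-day arrays carry the word reanalysis, and those of the 7-day and 14-day arrays do not. For every such list, a batch marked by that word and a smaller early rise at 21 days cannot be told apart. Of the 91 genes that passed as higher at 14 days against controls (0.506% of genes), 87 were also in the 7-day list, and the fit behind both took its spread from all arrays. Of the 91, 86 had a lower mean at 21 than at 7 days. Their median was -0.22, and -0.13 after quantile normalization with 77 below, against 0.01 and 0.00 over all genes. Of the 4 not in the 7-day list, 3 were lower, and 2 after quantile normalization. In the other check, 156 genes chosen as higher on the 7-day arrays numbered 1 to 4 had a median of -0.10 in the arrays numbered 5 to 8, with 110 below. The 114 chosen on numbers 5 to 8 had a median of -0.35 in numbers 1 to 4, with 107 below, where genes above 6 stood at -0.23. On the quantile scale these medians were -0.17, over 87 genes, and -0.18, over 98 genes.

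**Figure D3:**
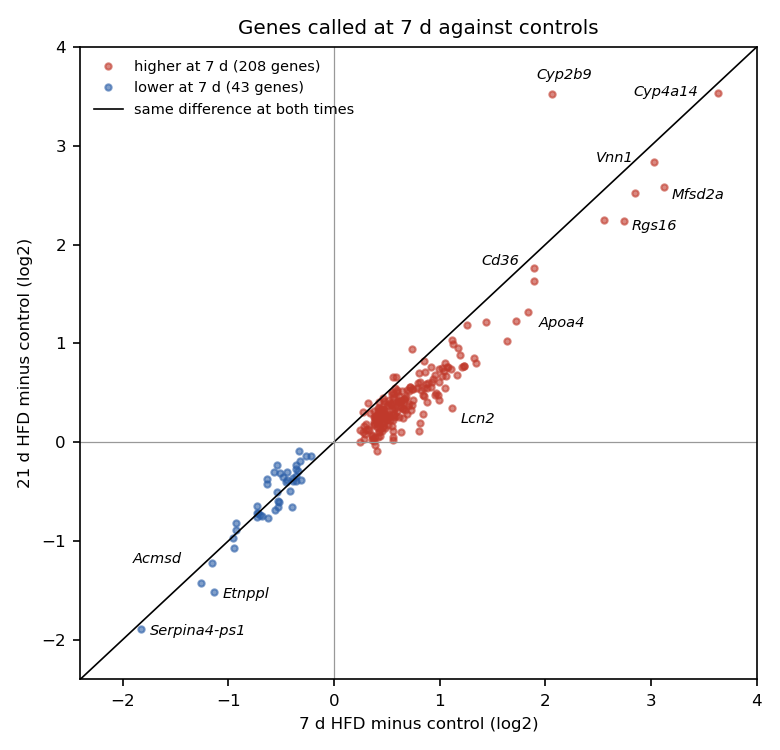
Difference from controls (log2) after 21 days of HFD (vertical axis) against that after 7 days (horizontal axis) for the 208 genes higher (red) and 43 lower (blue) at 7 days. Both axes share the same controls; most red points lie under the line of equal difference, Lcn2 lies far under it at 0.34 against 1.12, Cyp2b9 lies above it at 3.52 against 2.06, and the blue points lie along it.

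Cyp4a14 and Vnn1, among the largest early rises, stood nearly as far above controls at 21 days (3.53 and 2.83) as at 7 days (3.64 and 3.02). Cyp4a14, a fatty acid omega-hydroxylase and the gene with the largest rise at 7 days, read 5.36 to 7.30 at 21 days (median 6.84) and 5.30 to 7.43 at 7 days (median 6.97). The ranges nearly coincide, and the difference was -0.10 (limits -0.72 to 0.51). Vnn1, a pantetheinase, read 5.0 to 6.64 at 21 days (median 6.33) and 5.80 to 6.83 at 7 days (median 6.26), with a difference of -0.19. Other leading genes had lower means at 21 days with limits that reach 0: Cyp4a10 at -0.31, Cyp4a31 at -0.33, the lysophosphatidylcholine transporter Mfsd2a at -0.54 (limits -1.38 to 0.31), the peroxisomal fatty acid transporter Abcd2 at -0.26, and Rgs16, a regulator of G-protein signalling induced by carbohydrate, at -0.50 (limits -1.40 to 0.41). All of these passed against controls at 21 days. Abcd2 was at -0.70 in the arrays numbered 1 to 4 and at 0.18 in those numbered 5 to 8. Rgs16 read 6.2 to 7.2 at 21 days and 7.0 to 8.1 at 7 days in numbers 1 to 4. In numbers 5 to 8 it read 7.9 to 8.5 and 7.9 to 8.7. For Vnn1 these ranges were 5.0 to 6.2 and 5.9 to 6.3, then 6.5 to 6.6 and 5.8 to 6.8. For Mfsd2a they were 7.8 to 8.0 and 8.3 to 8.7, then 6.7 to 8.7 and 7.0 to 8.8. Probe sets of the Cyp4a genes can take up each other's transcripts.

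Over 35 measured PPAR-alpha targets, 31 had a lower mean at 21 than at 7 days and 7 (20%) were lower at an unadjusted p under 0.05, while 0 passed the adjusted test. After quantile normalization 24 had a lower mean and 3 were lower at an unadjusted p under 0.05. Over all genes 45.6% had a lower mean and 2.8% were lower unadjusted, or 48.6% and 416 of 17989 on the quantile scale. The list's median was -0.15, and -0.06 after quantile normalization, where genes above 6 stood at -0.11 and -0.01. Of the 35, 22 passed as higher against controls at 21 days, as did 0.445% of all genes, and 25 passed at 7 days. Plin2, the coat protein of lipid droplets, read 9.55 to 10.40 at 21 days (median 10.06) and 10.19 to 10.79 at 7 days (median 10.34). The difference was -0.39 (limits -0.61 to -0.16), and 5 of the 8 arrays at 21 days were below every array at 7 days. Pex11a, which divides peroxisomes, differed by -0.31 (limits -0.51 to -0.11), the peroxisomal enzyme Ehhadh by -0.36 (limits -0.67 to -0.06) and the thioesterase Acot2 by -0.36 (limits -0.72 to -0.01). The hormone gene Fgf21, a secreted PPAR-alpha target, read 5.64 to 7.13 at 21 days (median 6.03) and 5.87 to 6.87 at 7 days (median 6.22), with a difference of -0.09 (limits -0.47 to 0.29).

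**Figure D4:**
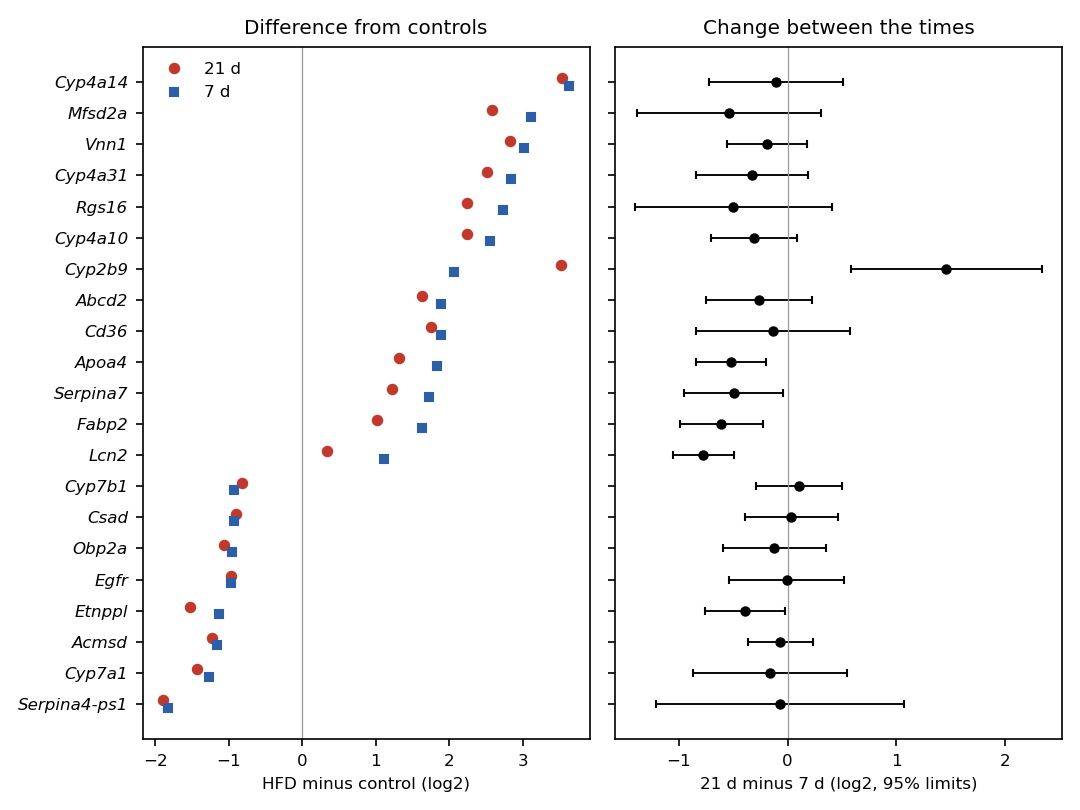
Left, difference from controls (log2) at 21 d (red circles) and 7 d (blue squares) of HFD for Lcn2 and the 12 largest rises and 8 largest falls at 7 days; right, the 21 d minus 7 d difference with its 95% limits from limma. Limits for Apoa4, Fabp2, Serpina7 and Lcn2 lie below 0, those for Cyp2b9 lie above 0 (0.59 to 2.34), and those of Cyp7b1, Csad, Egfr, Acmsd and Cyp7a1 include 0.

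Genes of fatty acid binding and lipoprotein export were among the early rises with the larger differences. Apoa4, an apolipoprotein of triglyceride-rich particles, read 10.86 to 11.69 at 21 days (median 11.28) and 11.51 to 12.18 at 7 days (median 11.80), and 5 arrays at 21 days lay below all at 7 days. Its difference was -0.52 (limits -0.84 to -0.20). Fabp2, the intestinal-type fatty acid binding protein, read 6.51 to 8.13 at 21 days (median 7.31) and 7.54 to 8.29 at 7 days (median 7.79), and 7 arrays at 21 days lay below all at 7 days. Its difference was -0.61 (limits -0.99 to -0.23). Both still passed against controls at 21 days, Apoa4 at 1.32 and Fabp2 at 1.02. Cd36, the fatty acid translocase, overlapped widely and read 6.01 to 8.47 at 21 days (median 7.13) and 5.75 to 8.44 at 7 days (median 7.41), with a difference of -0.13 (limits -0.84 to 0.57). Serpina7, the thyroxine-binding globulin, differed by -0.50 (limits -0.95 to -0.04). The lipid droplet, uptake and lipolysis list had 17 of 24 members lower and a median of -0.14, or -0.06 after quantile normalization. The lipoprotein list had 14 of 18 lower and a median of -0.13, or -0.04 with 11 of 18 lower after quantile normalization.

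Genes of fatty acid synthesis had the lowest median of the lists, apart from the acinar markers. Of 19 measured members of de novo lipogenesis, 16 had a lower mean at 21 days and 4 (21.1%) were lower at an unadjusted p under 0.05. After quantile normalization these counts were 15 and 2. The shares over all genes were 45.6% and 2.8% on the deposited scale. On the quantile scale they were 48.6% and 416 of 17989. The list's median was -0.26, and -0.21 after quantile normalization, where genes above 6 stood at -0.11 and -0.01. In the arrays numbered 1 to 4 it was -0.45 and in those numbered 5 to 8 it was -0.19. Scd1, the stearoyl-CoA desaturase that makes oleate, read 11.60 to 12.53 at 21 days (median 12.02) and 12.34 to 12.86 at 7 days (median 12.54), and 6 arrays at 21 days lay below all at 7 days. Its difference was -0.53 (limits -0.93 to -0.12), and its means in time order were 12.08 in controls, 12.56 at 7 days, 12.32 at 14 days and 12.03 at 21 days. Me1, the malic enzyme that supplies NADPH, differed by -0.62 (limits -1.08 to -0.15) and the desaturase Fads2 by -0.48 (limits -0.90 to -0.05). Fasn, the fatty acid synthase, varied more and read 8.34 to 10.16 at 21 days (median 9.13) and 8.42 to 10.31 at 7 days (median 9.71), with a difference of -0.28 (limits -1.01 to 0.46). Srebf1, which encodes SREBP-1, stood at 0.13 (limits -0.46 to 0.71).

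Related lipid lists had smaller medians of the same sign, which for most lay mainly in the arrays numbered 1 to 4. In numbers 1 to 4 and 5 to 8 the medians were -0.33 and -0.12 for elongation and desaturation and -0.40 and -0.01 for cholesterol genes. They were -0.33 and -0.01 for thioesterases and synthetases and -0.10 and -0.08 for triglyceride assembly. Elovl2, an elongase of polyunsaturated fatty acids, read 10.10 to 11.02 at 21 days (median 10.61) and 10.71 to 11.31 at 7 days (median 11.05), with a difference of -0.48 (limits -0.77 to -0.19). Elongation and desaturation genes had 14 of 16 members lower and a median of -0.19, or -0.14 after quantile normalization. The desaturases Scd1, Scd2, Fads1 and Fads2 stand in both lists. Cholesterol synthesis and uptake genes had 14 of 17 lower and a median of -0.19, or -0.09 after quantile normalization, with Hmgcs1, the cytosolic HMG-CoA synthase, at -0.43 (limits -0.85 to -0.00). Acyl-CoA thioesterases and synthetases had 16 of 21 lower and a median of -0.23, or -0.14 after quantile normalization, with Acsl5, which activates fatty acids, at -0.37 (limits -0.63 to -0.10). Acsl5 was at -0.58 in the arrays numbered 1 to 4 and at -0.15 in those numbered 5 to 8. In triglyceride assembly the phosphatidate phosphatase Lpin2 stood at -0.57 (limits -1.01 to -0.14) and the acyltransferase Gpam at -0.49 (limits -0.95 to -0.03), while the list's median was -0.08, or -0.05 after quantile normalization.

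The oxidation lists had medians near that of all bright genes. Mitochondrial fatty acid oxidation had 16 of 18 members lower with a median of -0.12, which became -0.02 with 9 of 18 lower after quantile normalization. Its lowest members included Hadhb, a subunit of the trifunctional protein, at -0.34 (limits -0.55 to -0.13) and the dehydrogenase Acadl at -0.35 (limits -0.61 to -0.09). Peroxisomal oxidation had 16 of 18 lower and a median of -0.13, or -0.01 after quantile normalization. Respiratory complex I had 27 of 32 lower at -0.10, and 12 of 32 lower at 0.02 after quantile normalization. The other respiratory complexes stood at -0.07 with 25 of 36 lower, and at 0.05 with 10 of 36 lower on the quantile scale. The direction of both respiratory lists thus depended on the scaling.

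For a mitochondrial carrier gene the groups did not overlap. Slc25a47, a carrier found almost only in liver, read 9.44 to 10.01 at 21 days (median 9.83) and 10.07 to 10.37 at 7 days (median 10.14). It was the single gene of 17989 (0.00556%) with every array at 21 days below every array at 7 days. A single such case among so many genes can arise by chance, so the separation does not show a change. Its difference was -0.35 (limits -0.58 to -0.13, adjusted p = 0.586), and -0.22 after quantile normalization. Its means in time order were 9.13 in controls, 10.16 at 7 days, 9.79 at 14 days and 9.81 at 21 days.

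The early falls were as deep at 21 as at 7 days on the deposited scale. Of the 43 genes lower at 7 days, 24 had a higher and 19 a lower mean at 21 days, with a median difference of 0.01. Their median difference from controls was -0.50 at 21 days and -0.53 at 7 days, with 96.8% left in the median gene, and all 43 stayed below controls. After quantile normalization the median was 0.09, with 31 of 43 higher at 21 days, so on that scale the falls too were smaller at 21 days. Genes chosen as lower at 14 days (29 genes, 0.161%) had medians of -0.07 and 0.02 on the 2 scales.

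Cyp7a1, which sets the rate of the classic bile acid route, read 6.62 to 8.92 at 21 days (median 7.49) and 5.69 to 8.59 at 7 days (median 7.89), and the difference was -0.16 (limits -0.87 to 0.55). Cyp7b1, of the alternative route to bile acids, stood at 0.10 (limits -0.29 to 0.50). Acmsd, which keeps tryptophan carbon from becoming NAD, read 4.42 to 4.93 at 21 days (median 4.74) and 4.56 to 5.17 at 7 days (median 4.75), with a difference of -0.07 (limits -0.36 to 0.23). Csad, which makes the taurine precursor, was at 0.03 and Egfr, the epidermal growth factor receptor, at -0.01. The lowest of these genes was Etnppl, which breaks down phosphoethanolamine, at -0.39 (limits -0.76 to -0.02). In the arrays numbered 1 to 4 Etnppl read 6.71 to 7.42 at 21 days and 7.15 to 8.24 at 7 days. In those numbered 5 to 8 it read 7.93 to 8.26 at 21 days and 7.84 to 8.09 at 7 days. All of the genes named here were lower than controls at both times.

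Some genes differed from controls at 21 days and not at 7 days. Of the 46 genes lower than controls at 21 days (0.256%), 20 were not called at 7 days, and their median 21 minus 7 difference was -0.24, or -0.19 after quantile normalization. All 20 had a lower mean at 21 days, a direction that the choice on the 21-day arrays partly fixes. They included the complement component C6, which read 5.94 to 7.31 at 21 days (median 6.80) and 6.81 to 7.98 at 7 days (median 7.39), with a difference of -0.57 (limits -0.94 to -0.20). For C6 it was -0.96 in the arrays numbered 1 to 4 and -0.18 in those numbered 5 to 8. Fabp5, the epidermal-type fatty acid binding protein, read 4.22 to 5.38 at 21 days (median 4.80) and 4.79 to 5.91 at 7 days (median 5.39), with a difference of -0.63 (limits -1.09 to -0.16). The glutathione transferases Gstm2 (-0.44) and Gstm6 (-0.35) and the glycolytic enzyme Tpi1 (-0.28, limits -0.44 to -0.12) were also among them. No difference between the times passed for any of these genes, so passing at one time alone does not show a change.

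Cyp2b9 stood out among the early rises, with higher values at 21 than at 7 days. It is a cytochrome P450 that mouse females express more than males and a target of the xenobiotic receptor CAR. It read 4.42 to 6.96 on the 21-day arrays, with a median of 6.47, and 3.38 to 6.52 on the 7-day arrays, with a median of 4.62. The arrays at 21 days were mostly high, with the array numbered 5 at 4.42 the exception, while those at 7 days were spread over the whole range. The difference was 1.46 (limits 0.59 to 2.34), a 2.76-fold difference in means, with an adjusted p of 0.574. It was 1.24 in the arrays numbered 1 to 4, 1.69 in those numbered 5 to 8 and 1.51 after quantile normalization. Against controls Cyp2b9 was higher by 3.52 at 21 days and by 2.06 at 7 days. On the 14-day arrays it read 2.86 to 6.40, with no array above the 21-day median. The values thus did not show a steady rise with time. The 21-day titles carry the word reanalysis, and those of 7 and 14 days do not. Probe sets of the Cyp2b genes can take up each other's transcripts. Of the 208 early rises, 5 others had a higher mean at 21 days, among them G0s2, an inhibitor of triglyceride lipolysis, at 0.20 (limits -0.24 to 0.64), and the carnitine transporter Slc22a5 at 0.10; these 2 were chosen after their values were seen.

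Of the 80 genes higher than controls at 21 days (0.445%), 9 were not called higher at 7 days. Their median 21 minus 7 difference was 0.25, or 0.22 after quantile normalization. All 9 had a higher mean at 21 days, a direction that the choice on the 21-day arrays partly fixes. Lmbr1l, a lipocalin receptor-like membrane protein, read 4.36 to 4.65 at 21 days (median 4.51) and 3.83 to 4.34 at 7 days (median 4.11). Its groups did not overlap, as for 5 genes of 17989 (0.0278%) with every array at 21 days above every array at 7 days. Whether chance gives that many was not tested. For Lmbr1l the adjusted p did not pass. Its difference was 0.41 (limits 0.19 to 0.64). Slc19a1, the reduced folate carrier, read 3.17 to 3.85 at 21 days (median 3.35) and 2.89 to 3.21 at 7 days (median 3.03), with a difference of 0.39 (limits 0.19 to 0.60). The rest of the 10 genes with the smallest p in the upward direction had low levels, with 21-day means of 2.38 to 4.63, where the 95th percentile of background was 2.86. They were Gpr157 (0.37), Hoxb7 (0.36), Zbtb5 (0.39), Slc22a13 (0.43), Zp3 (0.31), Otop3 (0.33), Ghrhr (0.33) and the taste receptor gene Tas2r121 (0.25). Tas2r121, with a mean of 2.38 at 21 days and 2.13 at 7 days, and Zp3, with 2.86 and 2.56, did not clear that background.

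Next to Lcn2, the genes with the smallest p in the downward direction came from several functions. Chrna4, a nicotinic acetylcholine receptor subunit, read 3.94 to 4.92 at 21 days (median 4.35) and 4.60 to 5.68 at 7 days (median 5.02), and 6 arrays at 21 days lay below all at 7 days. Its difference was -0.69 (limits -1.03 to -0.36), and against controls it stood at 0.11 at 21 days and at 0.81 at 7 days. Ly6d, a surface protein of the Ly6 family, read 3.0 to 4.49 at 21 days (median 3.81) and 3.95 to 4.70 at 7 days (median 4.41), with a difference of -0.56 (limits -0.86 to -0.26). Spc25, a kinetochore protein of dividing cells, differed by -0.33 (limits -0.51 to -0.15) at levels close to background. Dtx3l (-0.50), a ubiquitin ligase, passed as higher at 7 days against controls, by 0.41, and was at -0.09 at 21 days. Chrna4, Ly6d and Spc25 also passed as higher at 7 days and not at 21 days. Gdap2 (-0.51), Vps26c (-0.45), Srek1ip1 (-0.40), Tst (-0.29) and Hpx did not pass against controls at either time.

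Most markers of liver macrophages had a lower mean at 21 days, and 0 of 11 passed the adjusted test. Of 11 Kupffer cell and macrophage markers measured, 10 had a lower mean at 21 days and 4 (36.4%) were lower at an unadjusted p under 0.05, with a median of -0.20, or -0.13 after quantile normalization. On the quantile scale 9 had a lower mean and 2 were lower at an unadjusted p under 0.05. Over all genes these shares were 45.6% and 2.8%, or 48.6% and 416 of 17989 on the quantile scale. The markers' median was -0.34 in the arrays numbered 1 to 4 and -0.15 in those numbered 5 to 8. All genes of level 5 to 6 stood at -0.20 and 0.04 in these sets. Vsig4, a complement receptor of Kupffer cells, read 5.89 to 7.06 at 21 days (median 6.49) and 6.59 to 7.89 at 7 days (median 6.95), and the difference was -0.54 (limits -0.92 to -0.15). Cd68, a lysosomal protein of macrophages, read 4.45 to 5.56 at 21 days (median 4.99) and 5.07 to 5.49 at 7 days (median 5.40), and the difference was -0.38 (limits -0.62 to -0.14). For both, 5 arrays at 21 days lay below all at 7 days, and C1qc stood at -0.30 (limits -0.58 to -0.03). The mean level of the 11 markers ran from 5.04 to 5.63 on the 21-day arrays, with a median of 5.47, and from 5.52 to 5.90 on the 7-day arrays, with a median of 5.64, and all 11 lay above background. Lyz2 was not among those measured. The part of these cells in the Lcn2 result was not tested. Of 7 T and B cell markers, 3 had a mean under background. All 7 had a higher mean at 21 days, by a median of 0.08, where olfactory receptor genes stood at 0.06. The markers' median was 0.21 in the arrays numbered 1 to 4 and -0.01 in those numbered 5 to 8. After quantile normalization it was 0.02 with 2 of 7 lower. Cd3e was at 0.22 (limits 0.05 to 0.40). Of 5 neutrophil markers, 4 with a mean under background, 2 were lower and 3 higher at 21 days, by a median of 0.15, or 0.11 after quantile normalization. The 2 past an unadjusted p under 0.05 were Elane at 0.27 (limits 0.07 to 0.47) and Retnlg at 0.26 (limits 0.06 to 0.47).

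In other metabolic lists 0 members passed the adjusted test. Gluconeogenesis, glycolysis and glycogen genes had 16 of 19 lower and a median of -0.18, or -0.10 after quantile normalization, with G6pc, the glucose-6-phosphatase, at -0.25 (limits -0.86 to 0.35) and Pck1 at -0.21 (limits -0.74 to 0.31). The list's median was -0.28 in the arrays numbered 1 to 4 and -0.01 in those numbered 5 to 8. Insulin signalling genes were split, 11 lower and 9 higher, with medians of -0.03 and, after quantile normalization, 0.03. Among them were the insulin receptor Insr at -0.30 (limits -0.73 to 0.13) and its substrate Irs2 at 0.02 (limits -0.35 to 0.40). Insr was at -0.88 in the arrays numbered 1 to 4 and at 0.28 in those numbered 5 to 8. Bile acid genes had a median of -0.04 that turned to 0.07 after quantile normalization, and the glycerophospholipid list stood at -0.04 and 0.03 on these scales. Ceramide genes had 20 of 24 lower and a median of -0.09, or -0.04 after quantile normalization, with the alkaline ceramidase Acer2 at -0.41 (limits -0.71 to -0.11). Interferon response, unfolded protein response, extracellular matrix and splicing-related genes had 0 members past an unadjusted p under 0.05 in either direction, with medians of -0.09, -0.07, -0.04 and -0.04. After quantile normalization these were -0.06, 0.04, -0.03 and 0.07, so the sign for the unfolded protein response and for splicing-related genes turned with the scaling.

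**Figure D5:**
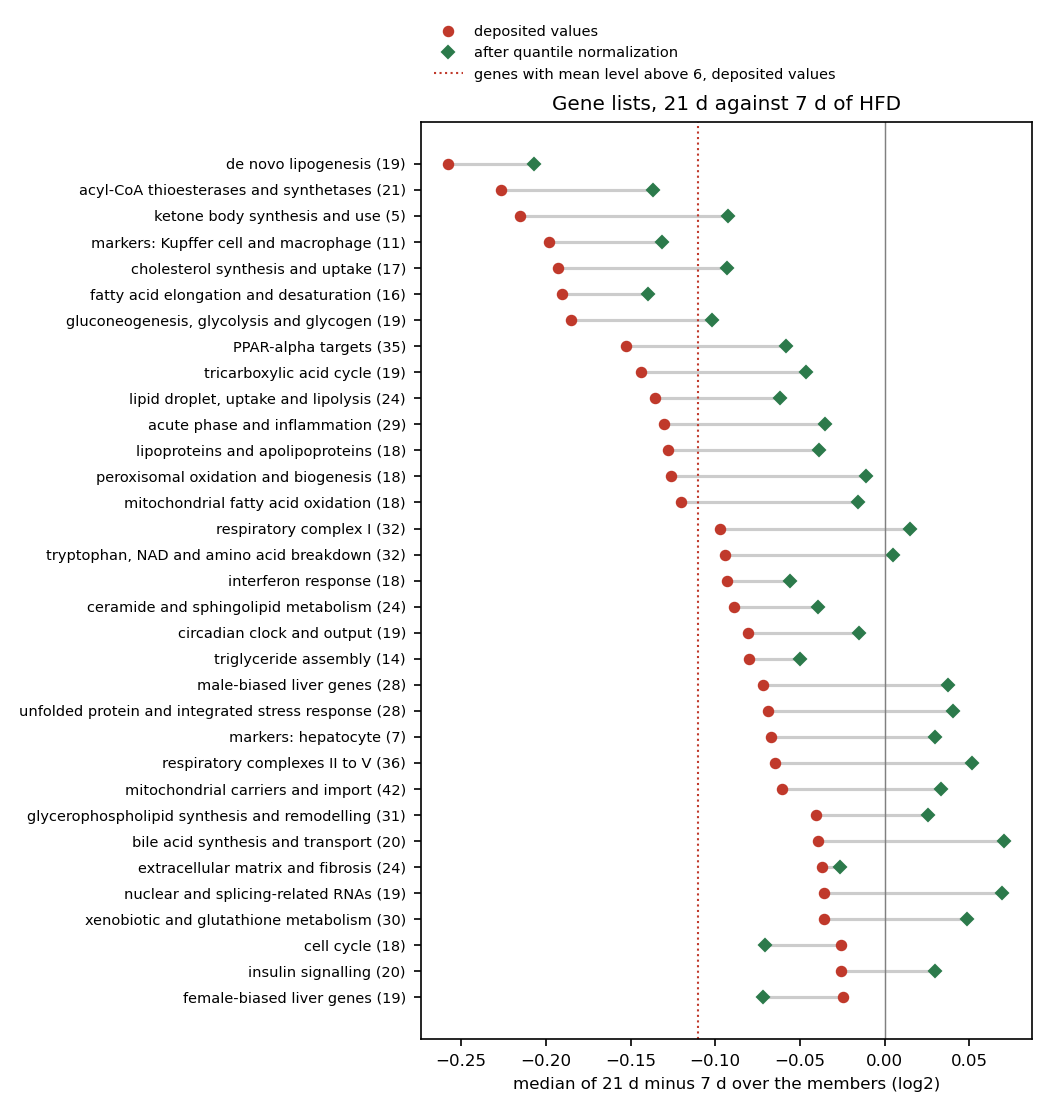
Median 21 d minus 7 d difference (log2, horizontal axis) over the measured members of each gene list (number in brackets), on the deposited scale (red circles) and after quantile normalization (green diamonds); the dotted line marks genes with a mean level above 6 on the deposited scale (-0.11). Lipogenesis is lowest at -0.26, and several lists cross 0 after quantile normalization; the acinar markers (-1.32) and the cell type lists other than hepatocytes and macrophages are not drawn.

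The change between 7 and 21 days also depended on the array numbers. A test of the difference in change between arrays numbered 5 to 8 and 1 to 4 passed for 66 genes (0.367%), 27 (0.15%) with the higher value in numbers 5 to 8 and 39 (0.217%) with the lower. After quantile normalization it passed for 72 (0.4%), 20 higher and 52 lower, and after median centring for 113, 95 higher and 18 lower, so the balance of directions turned with the scaling. Smc3, a cohesin subunit, was at -0.88 in numbers 1 to 4 and at 0.14 in numbers 5 to 8. None of the 160 genes named by rule was among the 66. In a fit of the 24 HFD arrays, 338 genes (1.88%) passed between 21 and 7 days within numbers 1 to 4, 89 higher (0.495%) and 249 lower (1.38%), and 113 (0.628%) after quantile normalization. Within numbers 5 to 8, 0 (0%) passed on either scale, with 1195 (6.64%) at an unadjusted p under 0.05 on the deposited scale and 1399 (7.78%) after quantile normalization. Fitted alone, the 8 arrays of either number set gave 0 genes. At an unadjusted p under 0.05 they gave 3867 in numbers 1 to 4 and 721 in numbers 5 to 8. The labels do not say what the numbers stand for.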

How the data were processed

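Whole-liver RNA was measured on Affymetrix arrays. The deposited table holds log2 values per probe set, made by the authors with RMA in Affymetrix Expression Console 1.1, per the submitters' processing notes. RMA subtracts background, equalizes distributions and summarizes probes, and it compresses differences between dim genes. Sources used here name no genome build. Of 32624 probe sets, 19559 carried 1 gene symbol in the platform annotation, 1469 several and 11596 none, and 1 lacked values on 33 arrays. For the 841 genes with several probe sets the brightest was used, which left 17989 genes, none filtered out.

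All 42 arrays entered 1 fit in limma 3.58.1 (R 4.3.3) with the groups control, 7, 14 and 21 days of HFD and no covariate, and p-values were adjusted by Benjamini-Hochberg over all genes at 0.05. All tests were two-sided. The procedure was tested on simulated data. Precision is limited by the number of arrays. Alternatives were fewer arrays, the array numbers as a block, arrays numbered 1 to 4 or 5 to 8 alone, quantile normalization, median centring, array weights, a filter on dim genes, acinar or Malat1 level as a covariate and each array left out. Quantile normalization without the 21-day array numbered 3, and with the numbers as a block, was added after the data were seen, as were the swap of lists between number sets on the quantile scale and the motif search.

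The comparison and the gene lists were chosen with earlier results of these data known. The rule for naming genes took called genes, filled to 10 a direction by the smallest p, then the 12 largest rises and 8 largest falls at 7 days against controls, up to 3 members of each list by smallest p, and a set of 23 metabolic genes of which 20 were measured. It passed over predicted genes and the Mup, olfactory, vomeronasal and antigen receptor families. Other list members and genes named by a count were chosen after their values were seen. Promoter sequences are RefSeq's on GRCm38.p6 and were matched by symbol.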

Additional observations from a re-analysis of the deposited data

Results flagged for a closer look

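Single arrays stood apart from the other 7 of their group for 17 of the named genes, by a gap above Dixon's 95% value. In all, 324 groups of 8 arrays were tested and 18 gaps passed, where chance passes about 1 in 20. At 21 days the array numbered 8 read 5.08 for Lcn2, with the others at 4.10 to 4.51, and 4.13 for the ceramide synthase gene Cers6, with the others at 3.30 to 3.68. The 21-day array numbered 3 read 5.01 for the interferon-induced GTPase gene Irgm1 (others 5.72 to 6.08) and 5.56 for Pcyt1a, of phosphatidylcholine synthesis (others 6.05 to 6.38). The 21-day array numbered 6 read 8.22 for G6pc (others 9.33 to 10.12), 5.56 for Ndufb3 of complex I (others 4.83 to 5.13), 2.73 for the clock gene Per1 (others 3.14 to 3.40) and 7.12 for the pancreatic ribonuclease gene Rnase1 (others 2.87 to 4.76). The 21-day array numbered 5 read 6.69 for Ndufs8 of complex I (others 7.40 to 7.54).

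At 7 days the array numbered 4 read 5.69 for Cyp7a1 (others 7.71 to 8.59), 7.15 for Etnppl (others 7.84 to 8.24), 6.18 for the clock gene Rora (others 6.62 to 7.01) and 2.67 for the ceramidase gene Acer1 (others 2.24 to 2.41). The 7-day array numbered 5 read 6.23 for Acer2 (others 4.79 to 5.44). The 7-day array numbered 7 read 4.21 for the collagen gene Col6a3 (others 3.74 to 3.91) and 3.30 for Hoxb7 (others 3.02 to 3.13). The 7-day array numbered 3 read 4.04 for Per1 (others at most 3.52), and that numbered 1 read 10.37 for Slc25a47 (others 10.07 to 10.20).

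The change between 7 and 21 days differed between the arrays numbered 5 to 8 and 1 to 4 for 66 genes by limma's test of that difference, against 1 gene for the change itself. What the numbers stand for was not tested.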

How the results depend on the processing

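The count of 1 gene called between 21 and 7 days went to 0 with only the 16 arrays (adjusted p of Lcn2 0.216), the 24 HFD arrays (0.423), these with the number set as a block (0.314), arrays numbered 1 to 4 (0.0672) or 5 to 8 (0.999) alone, array weights (0.118) and quantile normalization (0.103), the last also without the 21-day array numbered 3 (0.148) or with the number set as a block (0.486). Leaving out single arrays gave 0 to 1 genes, with Lcn2 at -0.87 to -0.73. Its call was kept in 4 of 16 such cases, without the 7-day arrays numbered 3, 5 or 6 or the 21-day array numbered 8. It was also kept under median centring (0.0204), the dim-gene filter (0.0211), the mean over probe sets (0.0283) and the Malat1 covariate (0.0271). The sign of Lcn2 was negative in all of these. Fewer samples were fitted in the first 5; for the others the cause was not tested.

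The replicate block gave 0 genes called (1000 at an unadjusted p under 0.05) and an adjusted p of 0.749 for Lcn2. Same-numbered arrays correlated at -0.26 to 0.42, over 0.1 in 5 of 8 pairs, and 1 of the 21-day arrays correlated best with its own number. The numbers were not taken to pair the arrays. Correlations averaged 0.16 within the same number set and -0.15 between sets, so the sets shared structure across times. The main fit had no term for it. In the 24 HFD arrays, 1689 genes passed an unadjusted p under 0.05 with the set as a block and 1275 without it.

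Array weights raised the genes called at 7 days against controls to 605, and leaving out single arrays gave 195 to 273. Median centring raised the 66 genes that differed between number sets to 113; the cause was not tested. The early rises' median of -0.23 was -0.26 to -0.20 with single arrays left out. Of 5207 values under alternatives, 5153 were classed as unchanged. For Lcn2 this meant the same sign and an adjusted p under 0.05. For the other named genes and the early rises' median it meant a value within the SD between arrays of the reported one. For counts of genes it meant a ratio of at most 1.5. A value near 0 could thus change sign and still be classed as unchanged.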

Other observations

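Genes that males express more than females in mouse liver included 8 of 28 measured called lower than controls at 21 days (0.256% of all genes) and 8 at 7 days (0.239%), and the 2 counts share their controls. Of the 28, 21 had a lower mean at 21 than at 7 days. Their median difference between the times was -0.07, and 0.04 after quantile normalization, so its sign depended on the scaling. Cyp4a12b, a male-biased fatty acid hydroxylase, read 8.60 to 9.88 at 21 days (median 9.39) and 9.21 to 10.10 at 7 days (median 9.92). The groups overlapped, and the difference was -0.50 (95% limits -0.84 to -0.16, limma adjusted p = 0.613). Its neighbour in sequence Cyp4a12a stood at -0.42, and probe sets of the pair can take up each other's transcripts. Of 19 female-biased genes, 4 were called higher than controls at 21 days (0.445% of all genes) and 7 at 7 days (1.16%). Among them Cyp2b9 had a difference of 1.46 between 21 and 7 days, while the magnesium transporter-like gene Nipal1 stood at -0.51 (limits -0.85 to -0.16).

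In amino acid breakdown, Oat, the mitochondrial ornithine aminotransferase, read 8.87 to 9.88 at 21 days (median 9.58) and 9.63 to 10.26 at 7 days (median 9.96), and 4 of the 8 arrays at 21 days lay below every array at 7 days. The difference was -0.42 (limits -0.67 to -0.17), and -0.32 after quantile normalization. The list of 32 genes had 25 lower at 21 days, and 16 after quantile normalization. Among 13065 probe sets with no single gene symbol, 0 passed between 21 and 7 days in limma, with 1025 at an unadjusted p under 0.05 and a smallest adjusted p of 0.146.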
